A study of Mus musculus with 5 samples.

Results

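The genes described here encode the vacuolar proton pump (V-ATPase), the Ragulator and Rag GTPase complexes on the lysosome, the folliculin complex, the mTOR kinase with its partner raptor, and the transcription factors of the TFEB family. They were chosen by symbol: those starting with Atp6v or Atp6ap, plus Lamtor1 to Lamtor5, the 4 Rag genes, Tfeb, Tfe3, Tfec, Mitf, Flcn, Fnip1, Fnip2, Mtor and Rptor. The rule found 43 genes of the 20581 symbols in the count table, and each was read at its transcript row with the highest mean count. RNA was sequenced from macrophages grown from bone marrow of mice on a C57BL/6 background, aged 7 to 8 weeks, with 2 libraries of the NICcA genotype (replicates 2 and 3) and 3 of wild type (replicates 1, 2 and 3). In both genotypes, marrow cells had been kept for 7 days in 25 ng/ml M-CSF, the growth factor that drives marrow progenitors to become macrophages. The labels do not spell out NICcA. The name has been used for mice with conditional expression of the Notch intracellular domain, the fragment of the receptor that activates transcription, and the promoter or Cre driving it is not given in the sources used here. Whether each library stands for its own animal or culture is not said in the labels, so a p-value here speaks of library-to-library spread, part or all of which may be technical.

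The V-ATPase is a rotary pump. Its V1 sector hydrolyses ATP in the cytosol, its V0 sector carries protons through the membrane, and the acid it makes lets lysosomal enzymes digest what macrophages take up. The pump also sits beside Ragulator, a scaffold that holds the Rag GTPases on the lysosome, and when amino acids are plentiful the Rags bring mTORC1 there to be switched on. Folliculin with its FNIP partners acts on RagC and RagD, through which mTORC1 phosphorylates TFEB, TFE3 and MITF and keeps them in the cytosol. When released, these factors enter the nucleus and switch on lysosomal and autophagy genes, V-ATPase genes among them.

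In the NICcA libraries 29 of the 38 testable members had a negative log2 fold change against wild type, and the median was -0.20, beside a median of 0.00 and 49.5% negative over the 13341 genes tested. The 7 members furthest below wild type were the V0 subunit Atp6v0d2, the V1 subunits Atp6v1a, Atp6v1b2 and Atp6v1c1, the folliculin partner Fnip2, the GTPase Rragd and the transcription factor Mitf, with log2 fold changes between -0.88 and -0.55. None of the 38 passed edgeR's adjusted threshold of 0.05 (lowest adjusted p = 0.275), where 0.03% of all genes passed. At an unadjusted p below 0.05 edgeR had 12 members lower (31.6%) and 0 higher, against 6.83% of all genes lower and 7.68% higher. DESeq2, run as an alternative, called those 7 members lower (18.4%) and 0 higher, where it called 3.61% of all genes, 1.66% lower and 1.95% higher. Without NICcA 2, which leaves a single NICcA library, DESeq2 called 0 members (and 0.291% of all genes), while the edgeR log2 fold changes of the 7 lay between -0.90 and -0.58. In the same setting the spread within a group could be seen in the wild type libraries alone. Without NICcA 3, again with a single NICcA library left, DESeq2 called some but not all of the 7. Their edgeR log2 fold changes then lay between -0.94 and -0.46. Because edgeR called no member, the members' differences below are given as values, without a claim that a gene changed.

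Both NICcA libraries lay below all wild type libraries at 17 members (44.7%), beside 18.5% of all genes. Without library scaling factors that number was 13. They lay above all wild type libraries at 3 members (7.89%), beside 18.3% of all genes. The 3 were Atp6v0e2, Rragb and Mtor, and their number was 6 without NICcA 3 or without wild type 2. Relative to the wild type mean, the members' median deviation in log2 CPM was -0.14 and -0.26 in NICcA 2 and NICcA 3, against -0.11, 0.0050 and 0.052 in wild type 1, 2 and 3. Wild type 1 thus lay close to NICcA 2 on this median, while NICcA 3 lay furthest below.

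**Figure D1:**
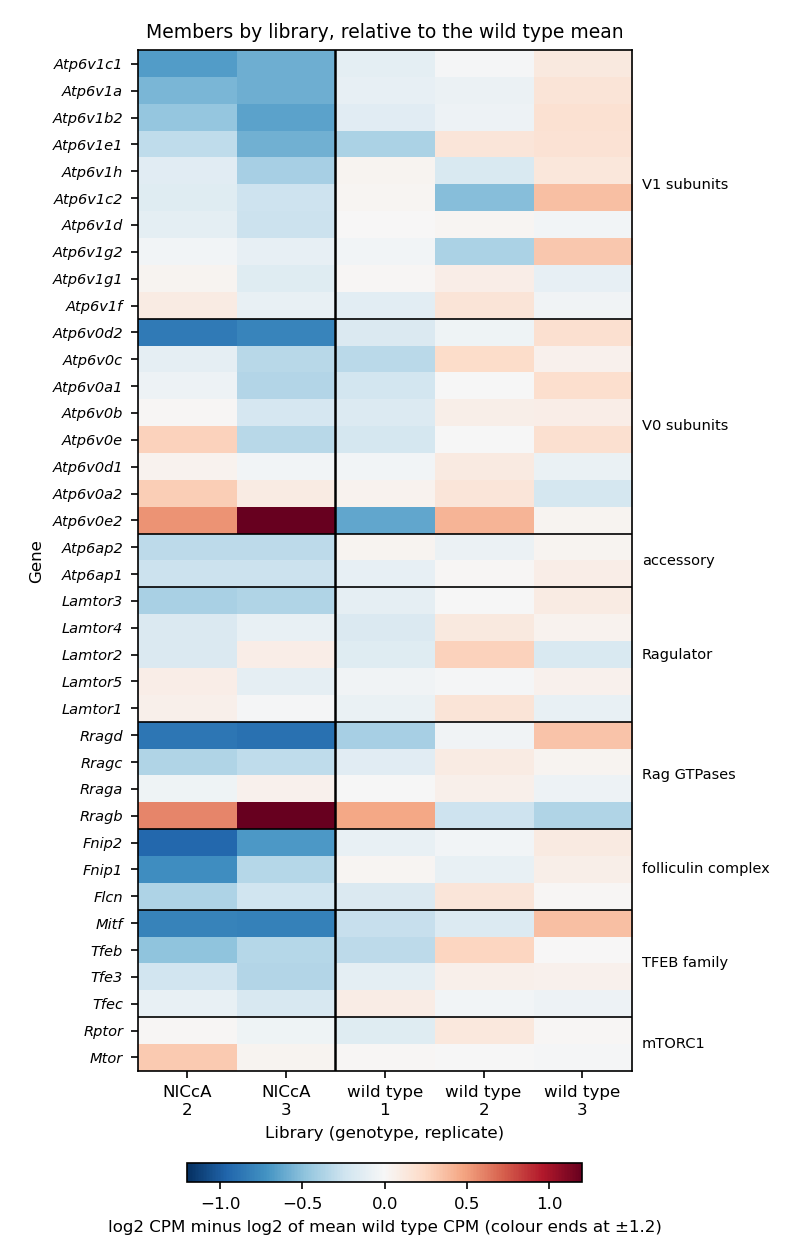
Each row is a tested member and each column a library. Colour gives log2 CPM minus the log2 of the mean wild type CPM, blue below and red above, with genes grouped by complex. The blue cells in both NICcA columns belong mainly to Atp6v1a, Atp6v1b2, Atp6v1c1, Atp6v0d2, Rragd, Fnip1, Fnip2 and Mitf, while most V0 and Ragulator genes are pale in all 5 columns.

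The libraries held between 57442309 and 76562905 counts, and members took between 308988 and 443536 of them. The first principal component of all tested transcript rows held 55.9% of the variance. On it NICcA 2 and NICcA 3 lay at -61.9 and -27.7, against 1.13, 22.3 and 66.2 for wild type 1, 2 and 3. Wild type 3 was therefore further from wild type 1 than NICcA 3 was, and NICcA 2 and wild type 3 stood at the ends. Hes1, a direct target of Notch signalling, had 185 and 125 counts in the NICcA libraries, against 1, 5 and 6 counts in the wild type libraries (log2 fold change 5.18, SE 0.54, with adjusted p = 0.134). Markers of the labelled cell type were abundant: Csf1r, the M-CSF receptor, was at 861 and 856 CPM (counts per 1000000, scaled by library) in NICcA cells, against 843, 883 and 1145.5 CPM in wild type cells. These are bulk samples, so fewer cells of a type and less RNA per cell cannot be told apart.

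TFEB family factors are known to bind CACGTG, the E-box core of the CLEAR element, and that core was searched in the 35 members that have a promoter window in the RefSeq table (GRCm38.p6; 250 bases before to 50 after each annotated start). CACGTG reads the same on both strands, and 9 members (25.7%) held it, where 8.09% of all 27025 genes in the table did. Shares of all genes in that table, here and below, include genes that were not tested for expression. Of the 9955 tested genes in it, 1141 held CACGTG. Members with the core lay on both sides of 0 in the expression results. Stretches from 6 of them are shown, with CACGTG in capitals and up to 12 bases on either side, 5′ to 3′ on the gene's own strand. Atp6v1a (chr16:44139373-44139402, minus strand), Fnip1 (chr11:54438092-54438121, plus strand) and Rragc (chr4:123917309-123917338, plus strand) are shown because they had an unadjusted p below 0.05, and Lamtor1 (chr7:101905757-101905786, plus strand) because it did not. Lamtor4 (chr5:138255350-138255395, plus strand) and Atp6v0b (chr4:117887334-117887377, minus strand) are shown because they hold the core 2 times, also with no such p. Rragb, whose copies began 127, 36 and 3 bases before the start, is not shown, and its value is given below.
Atp6v1a: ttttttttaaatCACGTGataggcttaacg
Fnip1: tcagtttgctgcCACGTGatacggctcgtc
Rragc: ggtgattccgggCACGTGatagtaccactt
Lamtor1: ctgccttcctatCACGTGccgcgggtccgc
Lamtor4: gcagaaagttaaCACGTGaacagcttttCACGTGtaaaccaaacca
Atp6v0b: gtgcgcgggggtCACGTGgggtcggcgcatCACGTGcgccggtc
The core began 131 bases before the annotated start in Atp6v1a, 75 in Fnip1, 112 in Rragc and 68 in Lamtor1. In Lamtor4 the copies began 120 and 104 bases before it, and in Atp6v0b 36 and 18 bases before it. In Atp6v1a, Fnip1 and Rragc the core runs on into the same letters, CACGTGATA, and Lamtor1 carries that run on its other strand as TATCACGTG. This longer run was picked after the sequences had been seen; 4 members (11.4%) hold it on either strand, where 0.133% of all genes in the table do.

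The expression values beside these letters differ widely. The log2 fold change was -0.57 for Atp6v1a, -0.53 for Fnip1 and -0.33 for Rragc, and 0.02 for Lamtor1, which holds the same run and whose sign turned in 4 alternatives. Rragb holds CACGTG 3 times and had the value 1.08, opposite in sign. The full palindrome TCACGTGA, which contains CACGTG, was in 3 members (8.57%), where 1.12% of all genes hold it: Atp6v1a, and also Atp6v0d1 and Atp6v0e, whose log2 fold changes were 0.01 and 0.00. The M-box TCATGTG, searched on both strands and known from MITF target genes in melanocytes, was in 3 members (8.57%), where 4.31% of all genes hold it: Atp6v0c, Lamtor1 and Lamtor2, none of them with a p below 0.05. Among the 1141 tested genes with CACGTG in their window the median log2 fold change was -0.02, and 20.7% had both NICcA libraries below all wild type libraries, beside 18.6% of the 9955 tested genes in the table. For the 208 of these 9955 genes with TCACGTGA the median was -0.07 and the share 28.4%.

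The V1 sector is a ring of alternating A and B subunits around a rotor of D and F, held by stalks of E and G and capped by C and H. Of its 13 genes 10 could be tested. Their median log2 fold change was -0.23, and 9 were negative. At an unadjusted p below 0.05, 3 were lower (30.0%, beside 6.83% of all genes), DESeq2 called the same 3 lower (beside 1.66%), and 4 (40.0%, beside 18.5%) had both NICcA libraries below all wild type libraries. The 3 were the A subunit, the B subunit and a C subunit.

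Atp6v1a, the catalytic A subunit that binds and splits ATP, was at 278 and 271 CPM in the NICcA libraries, against 379, 387 and 453 CPM in the wild type libraries. The groups did not overlap, and the NICcA libraries lay within 7 CPM of each other. The log2 fold change was -0.57 (SE 0.13, with adjusted p = 0.275), from a mean of 275 ± 4.76 CPM in NICcA and 406 ± 40.2 CPM in wild type cells (SD, n = 2 and 3). Atp6v1b2, the B subunit isoform of most cells, was at 456 and 403 CPM in NICcA libraries, against 572, 604 and 712 CPM in wild type libraries. Again no NICcA library reached the lowest wild type library (log2 fold change -0.55, SE 0.15, with adjusted p = 0.282). Atp6v1c1, the C subunit that joins the V1 stalks to the membrane sector when the pump assembles, was at 95.5 and 102 CPM in NICcA libraries, against 140, 152 and 166 CPM in wild type libraries. Of the V1 genes it had the most negative log2 fold change, -0.63 (SE 0.12, with adjusted p = 0.275), and it stayed between -0.67 and -0.56 without NICcA 2, NICcA 3 or wild type 3.

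The remaining V1 subunits lay closer to wild type. Atp6v1e1, a stalk subunit, was at 166 and 137 CPM in NICcA libraries, against 158, 228 and 231 CPM in wild type libraries. Here the groups overlapped, since NICcA 2 lay above wild type 1 (log2 fold change -0.44, SE 0.20, with adjusted p = 0.368). Atp6v1d, a rotor subunit, was at 71.6 and 64.7 CPM in NICcA cells and 77.7, 79.0 and 76.0 CPM in wild type cells, without overlap but with a log2 fold change of -0.19 (SE 0.10, with adjusted p = 0.399). Atp6v1h, which regulates the pump's activity, had a log2 fold change of -0.26 (SE 0.14, with adjusted p = 0.407) with overlapping groups. For Atp6v1f, the other rotor subunit, and the stalk subunit Atp6v1g1 the log2 fold changes were 0.01 (SE 0.13) and -0.05 (SE 0.12), and both turned sign in some alternatives. V1 subunits that assemble into the same particle therefore had differences between -0.63 and 0.01.

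Isoforms of V1 that are known from other tissues were nearly silent. Atp6v1b1, the B subunit of kidney and inner ear, had 4 and 2 counts in NICcA libraries, against 2, 1 and 3 counts in wild type libraries. Atp6v1e2, the testis E subunit, had 3 and 0 counts in NICcA libraries and 0 in each wild type library, and Atp6v1g3, known from kidney, had 0 and 2 counts in NICcA libraries and 0 in each wild type library. A count of 0 allows up to 3 counts, or 0.0409 to 0.0521 CPM depending on the library. Atp6v1c2 and Atp6v1g2 were low but testable, at 33 and 33 counts and at 73 and 75 counts in NICcA libraries, against 32, 28 and 46 counts and 63, 63 and 92 counts in wild type libraries. Both differences turned sign without wild type 3, and with the widely expressed paralog in the same RPKM sum neither gene reached 1% in any library.

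**Figure D2:**
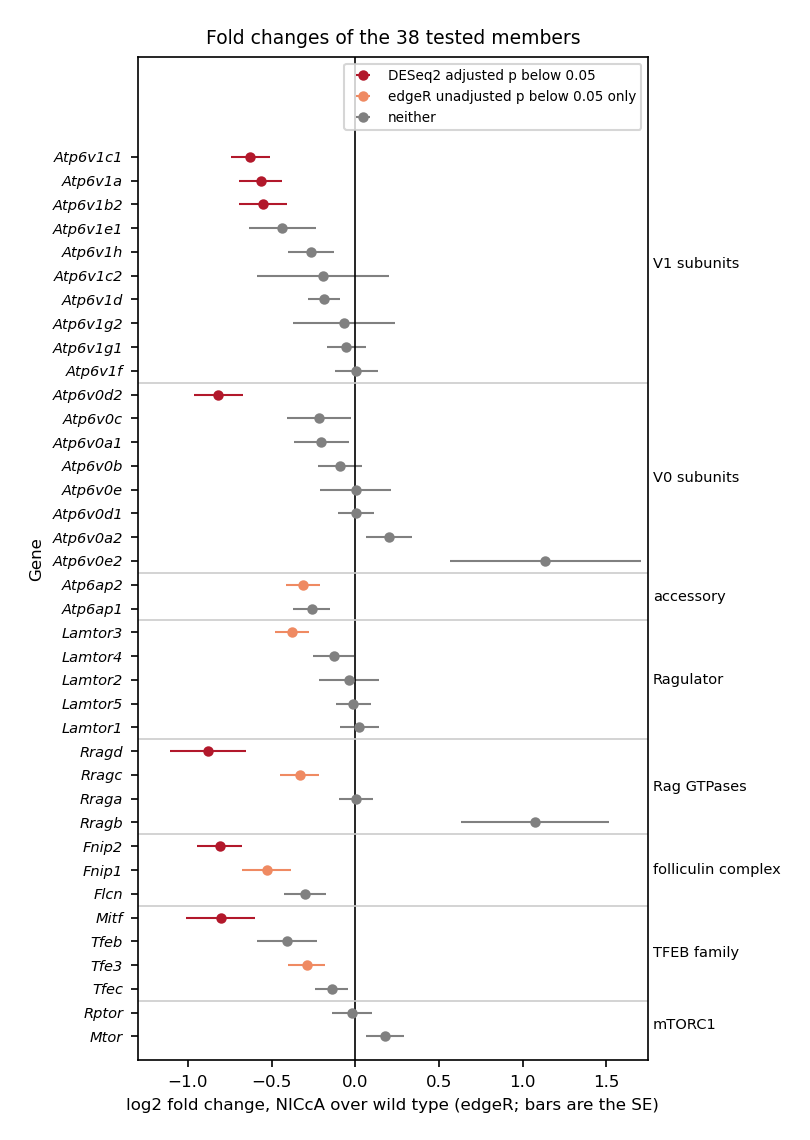
Points are log2 fold changes of NICcA over wild type from edgeR for each tested member, bars are standard errors, and colours mark an unadjusted p below 0.05 and DESeq2 calls. The 12 marked members all lie below 0, and Atp6v0e2 and Rragb, the only members above 1, have the widest bars.

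The V0 sector holds a ring of proteolipid c subunits that turns against the large a subunit and is connected to V1 by subunit d. Of its 9 genes 8 could be tested, and their median log2 fold change was -0.05, with 4 negative and 4 positive. Only Atp6v0d2 among them had an unadjusted p below 0.05.

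Atp6v0d2 is the d subunit isoform that osteoclasts and macrophages express at a high level, and in mice it is known for its part in osteoclast fusion. It was at 319 and 332 CPM in the NICcA libraries, against 510, 554 and 656 CPM in the wild type libraries. The NICcA libraries lay far below the lowest wild type library and close to each other, with means of 325 ± 9.01 CPM in NICcA and 573 ± 74.7 CPM in wild type cells (SD, n = 2 and 3). The log2 fold change was -0.82 (SE 0.15, edgeR adjusted p = 0.275), and -0.71 without wild type 3. DESeq2 gave an adjusted p of 0.000135, the lowest over the alternatives, and the highest was 0.901, from edgeR without NICcA 2.

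Its paralog Atp6v0d1, the d subunit of nearly all cells, was at 159 and 151 CPM in NICcA libraries, against 151, 166 and 146 CPM in wild type libraries. In CPM the groups overlapped fully, and the log2 fold change was 0.01 (SE 0.11, with adjusted p = 0.982), with a sign that turned in 4 alternatives. Per length, in RPKM (reads per kilobase of transcript, scaled by library), Atp6v0d2 was the more abundant of the pair in every library: it averaged 111 RPKM in NICcA and 180 RPKM in wild type cells, and Atp6v0d1 averaged 81.6 RPKM in NICcA and 75.1 RPKM in wild type cells. Of the summed RPKM of both genes, Atp6v0d2 made up 56.5% and 58.7% in NICcA libraries, against 68.6%, 68.4% and 74.4% in wild type libraries. The NICcA shares were lower without overlap, by -12.9 percentage points, with a two-sided exact permutation p of 0.1, the smallest that 2 against 3 libraries allow. With 14 such shares tested, the lowest adjusted p of any was 0.311.

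The proton-conducting a subunits are known to decide in which membrane the pump sits. Atp6v0a1 was at 103 and 84.4 CPM in NICcA libraries, against 92.4, 107 and 124 CPM in wild type libraries. Atp6v0a2 was at 89.3 and 78.1 CPM in NICcA libraries, against 75.0, 80.3 and 62.9 CPM in wild type libraries. In CPM both pairs of groups overlapped, with log2 fold changes of -0.20 (SE 0.16) for Atp6v0a1 and 0.20 (SE 0.14) for Atp6v0a2. Within the RPKM sum of Atp6v0a1, Atp6v0a2 and Atp6v0a4, which leaves out the a3 subunit, Atp6v0a1 took 60.6% and 59.0% in NICcA libraries, against 62.1%, 64.0% and 72.4% in wild type libraries (difference -6.40 percentage points, exact permutation p = 0.2). That difference was -3.28 without wild type 3. Atp6v0a4, the kidney isoform, had 3 and 0 counts in NICcA libraries, against 1, 0 and 2 counts in wild type libraries. The a3 subunit of lysosomes and the osteoclast border, Tcirg1, does not carry the Atp6v name and was looked up separately, after values had been seen. It was at 449 and 372 CPM in NICcA libraries, against 404, 540 and 536 CPM in wild type libraries (log2 fold change -0.27, SE 0.18, with adjusted p = 0.491), and in RPKM it exceeded Atp6v0a1 and Atp6v0a2 in each library.

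The proteolipid gene Atp6v0c had the highest RPKM of all members, averaging 493 RPKM in NICcA and 528 RPKM in wild type cells. Its difference, a log2 fold change of -0.22 (SE 0.19, with adjusted p = 0.601), cannot be assigned to it alone. The pseudogene Atp6v0c-ps2, listed in the second table, had RPKM values between 100.16% and 101.34% of those of Atp6v0c in every library. Atp6v0b stood at -0.09 (SE 0.13) on the log2 fold scale and Atp6v0e at 0.00 (SE 0.21), and both turned sign in some alternatives. Atp6v0e2, a low paralog of Atp6v0e, had 13 and 29 counts in NICcA libraries, against 5, 13 and 9 counts in wild type libraries. The difference rests on few reads (log2 fold change 1.14, SE 0.57, with adjusted p = 0.391), in raw counts NICcA 2 equalled wild type 2, and without NICcA 3 the value was 0.53. Summed over the 8 Atp6v0 genes other than Atp6v0c, and so without Tcirg1, V0 genes came to 560 and 478 RPKM in NICcA libraries, against 525, 568 and 610 RPKM in wild type libraries, and V1 genes to 701 and 627 RPKM in NICcA libraries, against 719, 776 and 801 RPKM in wild type libraries. The V1 sums did not overlap, while the V0 sums did.

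Accessory proteins help the pump assemble. Atp6ap2, also known as the prorenin receptor, was at 168 and 167 CPM in NICcA libraries, against 213, 198 and 212 CPM in wild type libraries. The gap between groups was wider than the spread within either (log2 fold change -0.31, SE 0.10, with adjusted p = 0.309). Atp6ap1, an accessory subunit that sits in the V0 sector, was at 309 CPM in both NICcA libraries, against 346, 373 and 391 CPM in wild type libraries. It also showed no overlap, with a log2 fold change of -0.26 (SE 0.11, with adjusted p = 0.356). Atp6ap1l, a gene related to Atp6ap1, had 0 counts in both NICcA libraries, against 0, 0 and 1 in the wild type libraries.

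**Figure D3:**
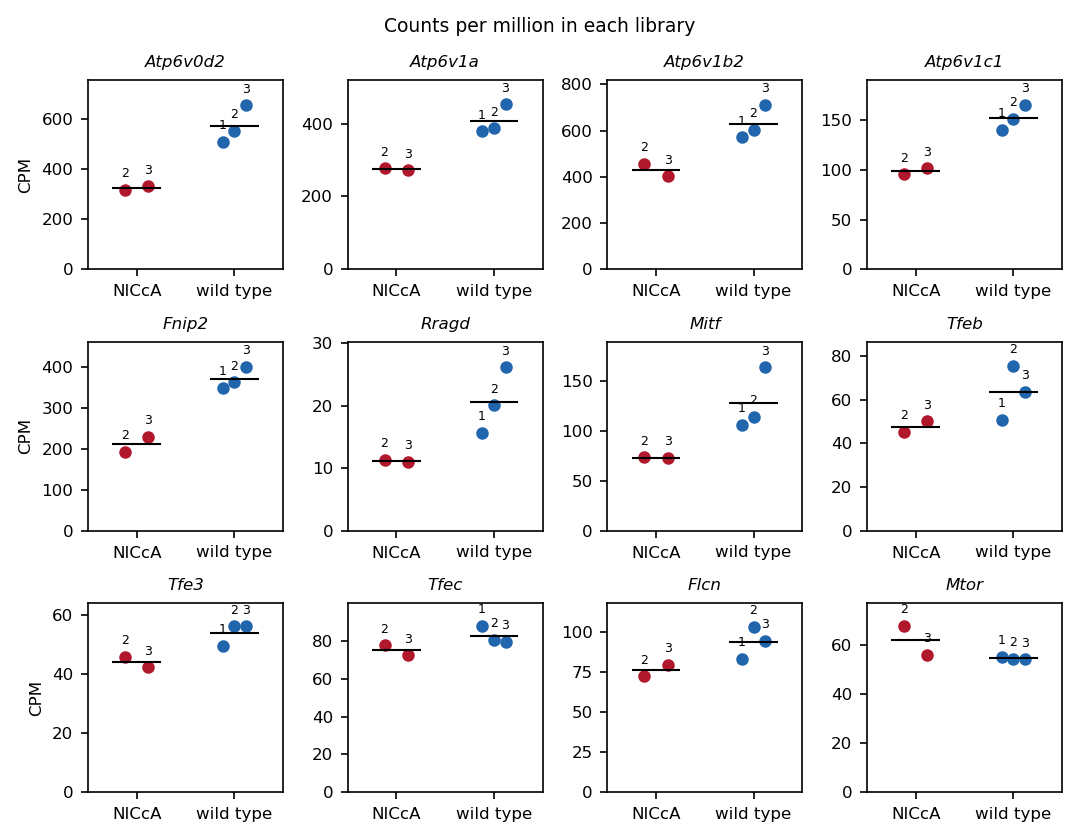
Each panel plots the CPM of a member in every library, NICcA on the left and wild type on the right, with points numbered by replicate and the group mean as a line. In Atp6v0d2, Fnip2, Atp6v1a and Mitf the NICcA points lie below all wild type points, and in several panels wild type 3 is the highest point.

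Ragulator is a ring of 5 small proteins wrapped by Lamtor1, which is lipid-anchored to the lysosome. The median over its genes was -0.04 on the log2 scale, and 1 of the 5 had an unadjusted p below 0.05. That was Lamtor3, which also scaffolds MAP kinase signalling: it was at 50.8 and 51.9 CPM in NICcA libraries, against 62.1, 66.6 and 71.4 CPM in wild type libraries. NICcA libraries differed by about 1 CPM and both lay below all wild type libraries (log2 fold change -0.38, SE 0.10, with adjusted p = 0.288). Lamtor1, the anchor, was at 96.3 and 91.0 CPM in NICcA libraries, against 87.2, 102 and 86.8 CPM in wild type libraries. Its groups overlapped, as did those of Lamtor2, Lamtor4 and Lamtor5. Log2 fold changes were 0.02 (SE 0.12) for Lamtor1, -0.04 (SE 0.18) for Lamtor2 and -0.01 (SE 0.11) for Lamtor5, each of which turned sign in some alternatives, and -0.13 (SE 0.12) for Lamtor4. In summed RPKM the complex stood at 213 and 215 in NICcA libraries, against 202, 225 and 205 in wild type libraries.

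Rag GTPases work as pairs of RagA or RagB with RagC or RagD. Within each pair of paralogs the more abundant gene lay nearer to wild type. Rragc was at 136 and 142 CPM in NICcA libraries, against 159, 187 and 178 CPM in wild type libraries, with no overlap (log2 fold change -0.33, SE 0.12, with adjusted p = 0.323). Rragd, which in mouse and human cells is known as a target gene of TFEB and MITF, was at 11.3 and 11.1 CPM in NICcA libraries, against 15.7, 20.1 and 26.2 CPM in wild type libraries. Its NICcA values almost coincided while its wild type values spread (11.2 ± 0.176 CPM in NICcA and 20.6 ± 5.26 CPM in wild type cells, SD, n = 2 and 3). At -0.88 (SE 0.23, with adjusted p = 0.28) its log2 fold change was the most negative of all tested members, and it was -0.67 without wild type 3.

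In RPKM, Rragd made up 4.12% and 3.88% of the summed Rragc and Rragd in NICcA libraries, against 4.85%, 5.24% and 7.04% in wild type libraries. The shares did not overlap (difference -1.71 percentage points, exact permutation p = 0.2), and the difference was -1.04 without wild type 3. Rraga was at 39.3 and 42.3 CPM in NICcA libraries, against 40.6, 42.5 and 38.9 CPM in wild type libraries, with a log2 fold change of 0.00 (SE 0.10) whose sign turned in 3 alternatives. Rragb, known mainly from brain, had 39 and 76 counts in NICcA libraries, against 31, 24 and 20 counts in wild type libraries. It was above all wild type libraries in both NICcA libraries, by a log2 fold change of 1.08 (SE 0.44, with adjusted p = 0.345), at 0.583 and 1.05 CPM in NICcA libraries and 0.538, 0.328 and 0.304 CPM in wild type libraries. Without NICcA 3 the log2 fold change was 0.59.

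In CPM all 3 genes of the folliculin complex had both NICcA libraries below all wild type libraries, as did 18.5% of all genes. Their median log2 fold change was -0.53. In RPKM the groups overlapped for Flcn, at 19.7 in NICcA 3 against 19.5 in wild type 1. Fnip2, a partner that binds folliculin and links it to the energy sensor AMPK, was at 193 and 229 CPM in NICcA libraries, against 349, 362 and 399 CPM in wild type libraries. The highest NICcA library lay more than 100 CPM below the lowest wild type library, with means of 211 ± 25.7 CPM in NICcA and 370 ± 26.4 CPM in wild type cells (SD, n = 2 and 3). Of all members it had the smallest p (log2 fold change -0.81, SE 0.13, edgeR adjusted p = 0.275). The DESeq2 adjusted p was 2.75e-05, the lowest over the alternatives, and the highest was 0.901, from edgeR without NICcA 2.

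Fnip1, whose promoter stretch is printed above and whose loss in mice blocks B cell development, was at 90.2 and 119 CPM in NICcA libraries, against 153, 142 and 158 CPM in wild type libraries. Relative to their mean, the NICcA libraries differed more from each other than at Fnip2, and both stayed below wild type (log2 fold change -0.53, SE 0.15, with adjusted p = 0.288; -0.34 without NICcA 2 and -0.74 without NICcA 3). Flcn itself, the tumour suppressor lost in Birt-Hogg-Dubé syndrome, was at 72.6 and 79.8 CPM in NICcA libraries, against 83.4, 104 and 94.7 CPM in wild type libraries. Without overlap, its log2 fold change was -0.30 (SE 0.13, with adjusted p = 0.351). Fnip2 was the more abundant partner per length, with 65.4% and 63.0% of the summed Fnip1 and Fnip2 RPKM in NICcA libraries, against 66.8%, 69.3% and 69.1% in wild type libraries (difference -4.19 percentage points, exact permutation p = 0.1).

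The 4 transcription factors of the TFEB family bind DNA as dimers of one another. In CPM each had both NICcA libraries below all wild type libraries, where 18.5% of all genes did. The differences were of unlike size (family median of the log2 fold changes -0.35). In RPKM the groups overlapped for Tfeb, at 18.3 in NICcA 3 against 17.7 in wild type 1. They also overlapped for Tfec, at 37.1 in NICcA 2 against 34.7 in wild type 3. Mitf, which drives pigment cell development and, with Tfe3, osteoclast maturation in mice, was at 73.4 and 73.1 CPM in NICcA libraries, against 106, 114 and 164 CPM in wild type libraries. The NICcA libraries were nearly identical and wild type 3 was far above the other wild type libraries (73.2 ± 0.255 CPM in NICcA and 128 ± 31.3 CPM in wild type cells, SD, n = 2 and 3). Its log2 fold change was -0.80 (SE 0.21, with adjusted p = 0.28), and -0.58 without wild type 3. Over its 3 transcript rows, which share most of their reads, the log2 fold change lay between -0.82 and -0.80.

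Tfeb, the family's namesake in lysosome biogenesis, was at 45.4 and 50.03 CPM in NICcA libraries, against 50.9, 75.5 and 63.6 CPM in wild type libraries. NICcA 3 lay less than 1 CPM below wild type 1, so the separation is narrow (log2 fold change -0.41, SE 0.18, with adjusted p = 0.36). Tfe3, which acts beside TFEB in macrophages, was at 46.0 and 42.4 CPM in NICcA libraries, against 49.7, 56.3 and 56.2 CPM in wild type libraries. It was below wild type in both NICcA libraries by a log2 fold change of -0.29 (SE 0.11, with adjusted p = 0.333). Tfec, the member largely restricted to macrophages, was at 77.6 and 72.3 CPM in NICcA libraries, against 87.9, 80.6 and 79.5 CPM in wild type libraries. Its difference was the smallest of the family, -0.14 (SE 0.10, with adjusted p = 0.518).

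Per length, Tfec was the most abundant of the family in every library. Tfec averaged 35.9 RPKM in NICcA and 36.7 RPKM in wild type cells, Tfeb 17.4 RPKM in NICcA and 21.3 RPKM in wild type cells, Mitf 12.8 RPKM in NICcA and 20.5 RPKM in wild type cells, and Tfe3 11 RPKM in NICcA and 12.4 RPKM in wild type cells. Between Tfeb and Mitf the order was not the same in all wild type libraries, since Mitf exceeded Tfeb in wild type 3. Mitf made up 16.4% and 16.7% of the family's RPKM in NICcA libraries, against 20.1%, 19.8% and 27.5% in wild type libraries (difference -5.93 percentage points, exact permutation p = 0.2; -3.44 without wild type 3). Tfec made up 47.7% and 45.5% in NICcA libraries, against 46.0%, 38.6% and 36.7% in wild type libraries, with overlap (difference 6.13 percentage points, exact permutation p = 0.3). The summed RPKM of the family was 77.9 and 76.4 in NICcA libraries, against 87.1, 91.1 and 94.7 in wild type libraries, without overlap.

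**Figure D4:**
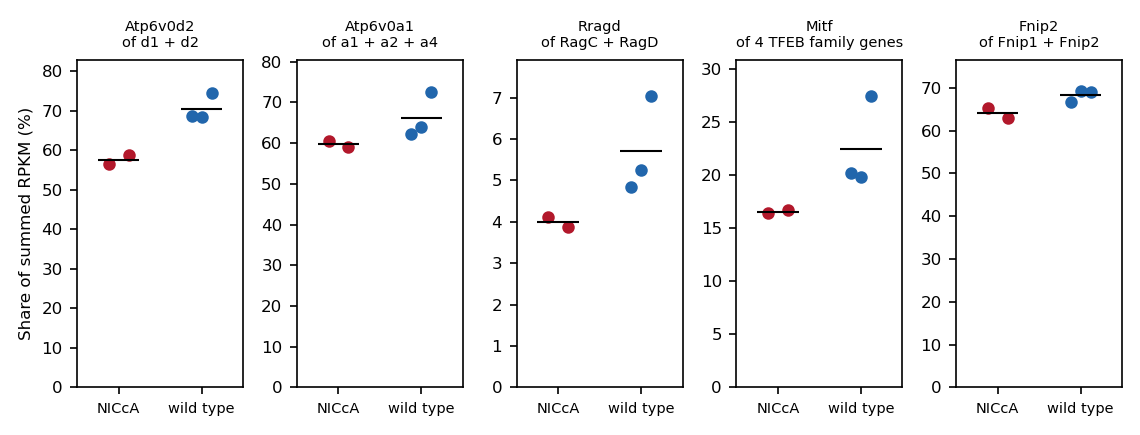
Each panel gives a member's percentage of the summed RPKM of its paralogs in every library (points), NICcA on the left and wild type on the right, with the group mean as a line. Atp6v0d2 lies at 56.5% and 58.7% in NICcA libraries and between 68.4% and 74.4% in wild type libraries, and wild type 3 is at the top for Atp6v0a1, Rragd and Mitf.

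Mtor, the kinase itself, was at 67.8 and 55.9 CPM in NICcA libraries, against 55.2, 54.4 and 54.2 CPM in wild type libraries. NICcA 3 lay less than 1 CPM above wild type 1, and the log2 fold change of 0.18 (SE 0.11, with adjusted p = 0.471) was 0.03 without NICcA 2. Rptor, which encodes raptor and brings substrates to mTOR, was at 25.7 and 24.5 CPM in NICcA libraries, against 22.9, 27.7 and 25.6 CPM in wild type libraries. Its groups overlapped and its log2 fold change of -0.02 (SE 0.12, with adjusted p = 0.948) turned sign in 5 alternatives.

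Other genes of the same pathways were read from 3 lists that leave the members out. Among 30 lysosomal and autophagy genes of the CLEAR network, 25 had a negative log2 fold change, with a median of -0.26, and edgeR called 0. At an unadjusted p below 0.05, 12 were lower (40.0%, beside 6.83% of all genes) and 0 higher. DESeq2 called 4 lower (13.3%, beside 1.66%), and 17 (56.7%, beside 18.5%) had both NICcA libraries below all wild type libraries. Gla, the lysosomal alpha-galactosidase, was at 82.9 and 81.2 CPM in NICcA libraries, against 118, 129 and 150 CPM in wild type libraries (log2 fold change -0.69, SE 0.13, with adjusted p = 0.275). Ctsd, the protease cathepsin D, was at 6171 and 6018 CPM in NICcA libraries, against 7982, 10256 and 10018 CPM in wild type libraries (log2 fold change -0.63, SE 0.18, with adjusted p = 0.288). Neither gene's groups overlapped.

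Of 21 V-ATPase partners, assembly factors and lysosomal ion transporters, 16 were negative with a median of -0.22. Here 4 were lower (19.0%, beside 6.83% of all genes) and 1 higher (4.76%, beside 7.68%) at an unadjusted p below 0.05. By the adjusted threshold edgeR called 0. The 1 higher was Rogdi, at 29.5 and 28.7 CPM in NICcA libraries, against 20.0, 13.2 and 8.15 CPM in wild type libraries. Without overlap, its log2 fold change was 1.08 (SE 0.34, edgeR adjusted p = 0.306). The smallest p values were those of Slc36a1, a lysosomal amino acid transporter, and Dmxl2, a rabconnectin that promotes V-ATPase assembly. Slc36a1 was at 43.3 and 48.1 CPM in NICcA libraries, against 62.8, 63.2 and 72.2 CPM in wild type libraries (log2 fold change -0.53, SE 0.12, with adjusted p = 0.275). Dmxl2 was at 136 and 171 CPM in NICcA libraries, against 229, 220 and 237 CPM in wild type libraries (log2 fold change -0.57, SE 0.14, with adjusted p = 0.275). In both, every NICcA library lay below every wild type library.

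In the list of mTORC1 subunits and nutrient sensors, of 25 genes found among 26, 9 were negative and 16 positive, with a median of 0.04. edgeR called 0, and at an unadjusted p below 0.05, 0 were lower and 2 higher, Sesn2 and Sesn3. That is 8.0% of the list, near the 7.68% of all genes that were higher at this threshold. Sestrins restrain mTORC1 through GATOR2, and Sesn2 also senses leucine and is a stress-response gene. Sesn2 was at 27.7 and 22.5 CPM in NICcA libraries, against 15.0, 15.4 and 9.30 CPM in wild type libraries (log2 fold change 0.92, SE 0.24, with adjusted p = 0.28). Sesn3 was at 5.03 and 5.28 CPM in NICcA libraries, against 3.92, 3.44 and 3.28 CPM in wild type libraries (log2 fold change 0.54, SE 0.17, with adjusted p = 0.303). Both NICcA libraries lay above all wild type libraries at each.

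Markers of macrophages and of other cells moved beside these values. The 7 macrophage markers found summed to 11637 to 12332 CPM in NICcA libraries, against 13641 to 20040 CPM in wild type libraries. Most of that sum was Lyz2, at 9302.5 and 10411 CPM in NICcA libraries, against 11521, 14308 and 17517 CPM in wild type libraries. At an unadjusted p below 0.05, 3 were lower (Lyz2, Cd68 and Mertk) and 1 higher (Fcgr1, log2 fold change 0.91). Itgam and Emr1 overlapped with positive log2 fold changes (0.47 and 0.16), and Csf1r with a negative one (-0.16). Osteoclasts, which form from the same precursors, express Atp6v0d2, Mitf and Tcirg1 at a high level. Their 9 markers found summed to 328 to 388 CPM in NICcA libraries, against 361 to 783 CPM in wild type libraries, with 2 lower and 2 higher. Ctsk, the bone-resorbing cathepsin K, was at 81.0 and 106 CPM in NICcA libraries, against 160, 259 and 569 CPM in wild type libraries. Itgb3 was also lower, at 5.79 and 5.93 CPM in NICcA libraries, against 13.4, 6.99 and 9.20 CPM in wild type libraries. Mmp9 ran the other way, at 20.9 and 22.4 CPM in NICcA libraries, against 0.833, 0.901 and 1.32 CPM in wild type libraries (log2 fold change 4.41, SE 0.23, edgeR adjusted p = 0.00666). So did Ocstamp, at 21.5 and 10.2 CPM in NICcA libraries, against 4.51, 2.91 and 1.41 CPM in wild type libraries. The groups overlapped for Acp5, Nfatc1 and Dcstamp, with log2 fold changes of 0.03, 0.01 and 0.21. The defining osteoclast markers Calcr and Oscar were at or below 0.1 CPM in every library.

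Melanocytes also express Mitf, and Dct, Tyr and Tyrp1, their pigment enzymes, were at or below 0.1 CPM in every library. Pmel, a melanosome protein, was at 1.54 and 1.65 CPM in NICcA libraries, against 1.27, 1.53 and 0.971 CPM in wild type libraries (log2 fold change 0.34, SE 0.28, edgeR adjusted p = 0.568). Summed markers of neutrophils came to 110 to 126 CPM in NICcA libraries, against 54.5 to 103 CPM in wild type libraries, those of mast cells and basophils to 16.2 to 23.0 CPM in NICcA libraries, against 2.64 to 10.4 CPM in wild type libraries, and those of dendritic cells to 662 to 1007 CPM in NICcA libraries, against 723 to 923 CPM in wild type libraries. Of these 3 lists each had 1 marker higher and 0 lower at an unadjusted p below 0.05. Most of the dendritic cell sum was Itgax, whose groups overlapped, as did those of Ccr7 and Clec9a. At Zbtb46, Cd209a, Xcr1 and Flt3 both NICcA libraries lay above all wild type libraries, as at 18.3% of all genes. B cell, T cell and erythroid markers summed to at most 1.002 CPM in any library, and stromal markers to 1.16 to 2.80 CPM in NICcA libraries, against 1.31 to 9.73 CPM in wild type libraries. What part these cell types have in the members' values was not tested.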

How the data were processed

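Per the file headers and the series' text, the authors deposited a table of raw read counts and RPKM for 27457 RefSeq transcript rows in 5 libraries, and a second table of RPKM alone (64528 rows), used here only for noncoding rows of members. Bowtie 0.12.2 and the build mm8 are named, without a role, in the submitters' processing notes; how reads were counted, and whether by strand, is not given in the sources used here. Rows of a gene share reads. The main test was the quasi-likelihood F test of edgeR 4.0.16 (R 4.3.3) on counts, with TMM, filterByExpr and genotype alone, with Benjamini-Hochberg adjustment over 18267 rows; the plan spoke of all rows, and each of 13341 genes is read at its row with the highest mean count. CPM are counts per 1000000 of the TMM-scaled library. SE is the log2 fold change over the square root of F. The depths set the counting floor; all other error is between libraries. Shares of paralogs use the deposited RPKM and an exact permutation test over 10 splits. DESeq2 1.42.0, limma 3.58.1, other scalings, filters and left-out libraries were alternatives. Per-library values are printed for members with an unadjusted p below 0.05 or a DESeq2 call, the TFEB family, Mtor and Rptor. Of each pathway list they are printed for the 2 with the smallest p. Values of other members and of Rogdi were added after they had been seen. Members and lists were chosen with earlier results of these data known. Promoter windows are from RefSeq, GRCm38.p6, a build other than that of the counts.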

Additional observations from a re-analysis of the deposited data

How the results depend on the processing

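edgeR's adjusted threshold called 0 members in each alternative except DESeq2, which called 7; limma-voom, limma on RPKM and edgeR with legacy = FALSE also called 0. DESeq2 was also run with a wild type library left out in turn, a check chosen after seeing the data. Without wild type 1 it called 9 members, beside 8.75% of all genes. Without wild type 2 it called 5, beside 1.83%, and without wild type 3 it called 6, beside 2.82%. The runs with a single NICcA library left are described above. The members' median log2 fold change of -0.1986 was -0.09241 with no scaling factors, where the median of all genes was 0.1091, and -0.2622 to -0.1362 with a library left out. Members below all wild type libraries, 17 in the main setting, numbered 13 with no scaling factors and 13 on RPKM. In RPKM the groups overlapped for Atp6v1d, Flcn, Tfeb and Tfec. Members above all wild type libraries, 3 with all libraries, numbered 5 with no scaling factors and 1 with a filter of at least 1 CPM in 2 libraries. They numbered 3 to 6 with a library left out and 4 on RPKM. On RPKM they were Atp6v0a2, Atp6v0d1, Rraga and Mtor, of which only Mtor was also above in CPM. Members with an unadjusted p below 0.05 numbered 8 to 16 over all alternatives. The log2 fold change of Rptor reversed to 0.08738 with no scaling factors, 0.07295 on log2(RPKM + 1) and 0.09476 on log2(RPKM + 0.1), and lay between -0.08486 and 0.04618 with a library left out. The cause was not tested. Of the 38 tested members 12 turned sign in some alternative, each said so beside its value, and of the 16 named by rule only Rptor did. The RPKM share difference of Atp6v0a1 was -2.963 with all its rows summed, and that of Rragd was -3.008 in CPM. Replicate numbers 2 and 3 recur in both groups, but no label pairs them. Deviations of same-numbered libraries from their group means had r = 0.20 and 0.17. With 2 NICcA libraries the deviations of NICcA 2 and NICcA 3 mirror each other. These values are therefore not independent and cannot settle whether the libraries pair. The share of all genes at an unadjusted p below 0.05 is given above for the main fit only. With the replicate block, 0 members were called, as were 0 of all 18267 rows. At such a p the block fit had 16 members, 15 lower and 1 higher. Wild type 1 has no NICcA library of its number, so in that fit it does not bear on the genotype difference.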
